A study of Mus musculus with 6 samples.

Results

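Integrins and laminins were described in mouse dorsal root ganglia (DRG), which house the cell bodies of sensory neurons, 24 h after kidney surgery. The members were all genes of the deposited count table whose symbol names an integrin alpha chain, an integrin beta chain or a laminin chain, which gave 37 of 57180 genes. They comprise 26 integrin and 11 laminin genes, and 35 of the 37 passed the filter on low counts and were tested. The members were taken by name, not by their values, but this set of names was chosen with earlier results of these data known.

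The compared groups were 3 wild-type mice with renal ischemia-reperfusion (I/R) and 3 wild-type sham-operated mice, each giving 1 library from ganglia of thoracic level 8 to lumbar level 2. All animals were anesthetized with Zoletil and the kidneys were reached through the flank. I/R mice had the vessels of the left kidney clamped for 28 min, followed by reperfusion, and lost the right kidney. Sham mice are labelled as operated in the same way but without the clamp, and removal of their right kidney is not stated separately. The sources used here do not give strain, sex or age.

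Integrins are receptors of the cell surface made of an alpha and a beta chain. They bind matrix outside the cell and link it to the actin cytoskeleton inside. Laminins are cross-shaped trimers of an alpha, a beta and a gamma chain and are the main adhesive proteins of basement membranes. In peripheral nerve, Schwann cells lay a laminin-rich basement membrane around axons, and growing sensory axons use integrins that contain the beta chain Itgb1 to advance on it.

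Library totals were 20234079 to 22010227 expected counts in I/R mice and 19092650 to 20390927 in sham mice. The sensory neuron genes fixed as markers, among them Uchl1, Prph and Avil, summed to 21130 to 25510 CPM in I/R and 23167 to 24632 CPM in sham ganglia, where CPM is the count per 1000000 counts of the TMM-scaled library size. All 12 of those genes were tested, and by edgeR, by DESeq2 and by limma-voom none was called or reached an unadjusted p under 0.05. The skeletal muscle genes summed to 43.7 to 69.0 CPM in I/R libraries but to 658, 55.4 and 379 CPM in sham 1, sham 2 and sham 3, so sham 1 and sham 3 stood apart from the other 4 libraries. The fibroblast and meningeal genes summed to 576 to 704 CPM in I/R and 1049 to 1280 CPM in sham ganglia. In bulk tissue, fewer cells of a type and less RNA per cell cannot be told apart.

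Itga7 was the 1 member that passed the test, and it rose in I/R ganglia, 1.95-fold over sham. No member fell at the threshold, an adjusted p under 0.05 in edgeR's quasi-likelihood test with adjustment over all genes. Thus 1 of 35 tested members was called, against 1.15% of all 16346 tested genes (0.722% called higher and 0.428% called lower). The median log2 fold change, I/R over sham, was -0.03 over the 35 members and 0.00 over all tested genes. Of the members, 5 had an unadjusted p under 0.05, namely Itga7, Itgb1, Itgb3, Itgam and Lamb3, against 10.5% of all tested genes. Of these, Lamb3 passed the filter on low counts only through its I/R libraries. The count of 5 is near the background and is used below only to choose which members are given by library. On the same genes, limma-voom called Itga7 alone (1.08% of all tested genes called), and DESeq2 called Itga7 higher and Itgb3 lower (1.91% of all tested genes called).

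**Figure D1:**
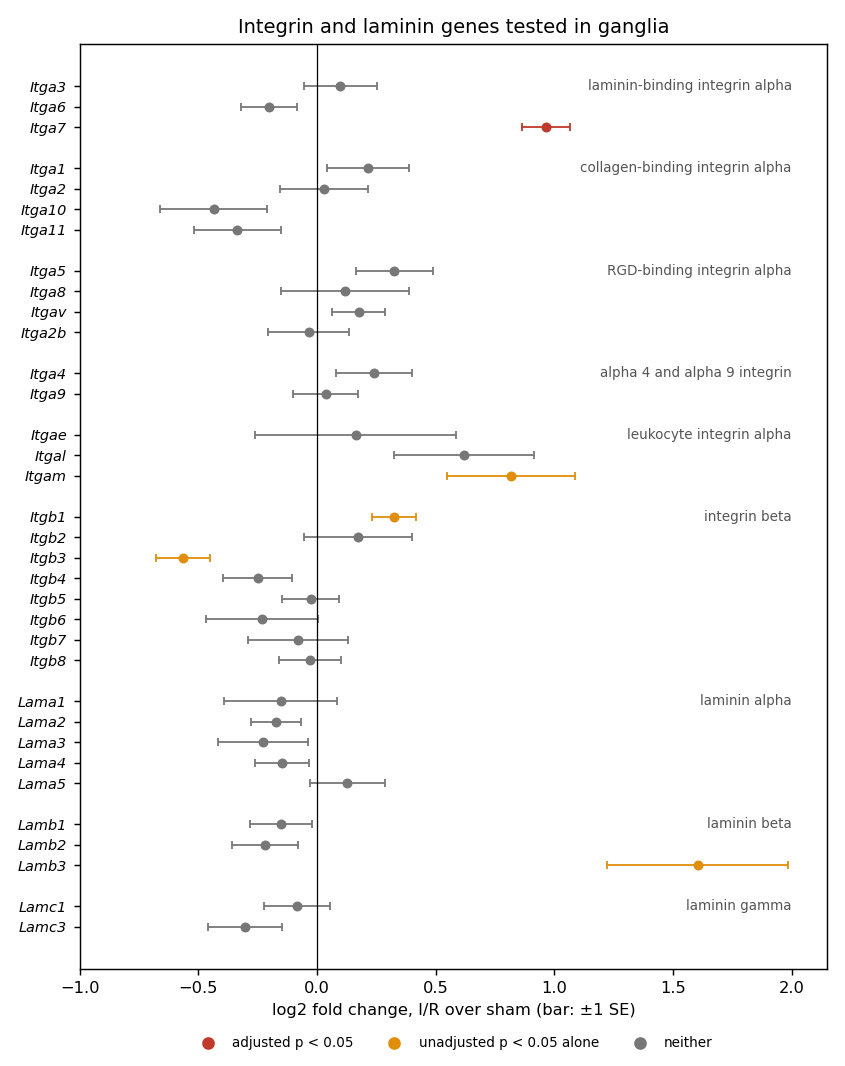
Log2 fold change of 34 of the 35 tested members, I/R over sham, with bars of ±1 standard error, grouped by role. Itga7 (red) stands at 0.96 and passed the adjusted test. Lamb3, Itgam, Itgb1 and Itgb3 (orange) had an unadjusted p under 0.05 only, and most laminins lie slightly below 0.

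Itga7 encodes the laminin-binding alpha chain known from skeletal muscle and from regrowing neurons. It had 473, 467 and 446 CPM in I/R 1 to 3, against 243, 260 and 208 CPM in sham 1 to 3. Every I/R library lay above every sham library, and the lowest I/R value exceeded the highest sham value by more than the whole spread within either group. The means were 462 ± 13.9 CPM in I/R and 237 ± 26.2 CPM in sham ganglia (SD, n = 3 each). The log2 fold change was 0.96 ± 0.10 (SE), with adjusted p = 0.00138 in edgeR's test.

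Skeletal muscle is itself a source of Itga7 transcripts, and the sham libraries differed in muscle content. Sham 2, the sham library with the least muscle, had 260 CPM of Itga7, against 243 CPM in sham 1 and 208 CPM in sham 3. The part of muscle in these values was not tested. Muscle level was low in all I/R libraries and in sham 2, so it went largely with the group. A fit with the muscle level of each library as a covariate therefore leans on sham 2. In that fit the log2 fold change was 0.87 (adjusted p = 0.0495 in edgeR's test). With sham 2 as the only sham library it was 0.81, and Itga7 was then not called (adjusted p = 0.111), in a fit where a single sham library is assumed to vary like the I/R libraries. Leaving out any 1 library gave 0.88 to 1.03, with adjusted p of 0.00172 to 0.0185.

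The other laminin-binding alpha chains did not pass the test. Itga3, which also pairs with Itgb1, had 120, 145 and 140 CPM in I/R 1 to 3, against 134, 148 and 96.1 CPM in sham 1 to 3. The groups overlapped, with the lowest value in sham 3 (log2 fold change 0.10 ± 0.15 SE, adjusted p = 0.865). Itga6, which pairs with Itgb1 or Itgb4, had 58.6, 67.7 and 79.1 CPM in I/R 1 to 3, against 75.6, 81.6 and 79.3 CPM in sham 1 to 3. Its values lay lower in I/R 1 and I/R 2 and overlapped in I/R 3 (log2 fold change -0.20 ± 0.12 SE, adjusted p = 0.606).

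Levels of different genes were compared per length, as TPM (counts per length, scaled to a sum of 1000000 in every library) computed with the deposited gene lengths. How those lengths were defined is not stated. For 26 of the 37 members they equal the longest transcript in GENCODE M21, but for Itga7 the deposited length is 4191 bases, against 4020 bases for that transcript and 8092 bases for all its exons merged, so levels and shares per length depend on this choice. With all 3 kinds of length Itga7 ranked highest of the 18 alpha chains over the 6 libraries. With the deposited lengths it stood at 283 ± 8.46 TPM in I/R and 144 ± 20.3 TPM in sham ganglia. Itga3 followed with 74.1 ± 10.5 TPM in I/R and 68.6 ± 16.6 TPM in sham ganglia, and Itga6 with 52.2 ± 10.6 TPM in I/R and 59.2 ± 3.05 TPM in sham ganglia. Itga3 and Itga6 overlapped across libraries, so their order is not beyond their spread.

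Of the summed TPM of all alpha chains, Itga7 made up 66.7%, 63.2% and 60.7% in I/R 1 to 3, against 47.4%, 47.4% and 46.7% in sham 1 to 3. The 3 laminin-binding chains together made up 91.6% ± 0.645 in I/R and 88.8% ± 1.04 in sham ganglia. Thus the large majority of alpha chain transcript per length belonged to laminin receptors in both groups. Among those 3 chains the share of Itga7 was 69.3% ± 2.91 in I/R and 53.1% ± 0.295 in sham ganglia. The shares did not overlap between groups, and an exact two-sided permutation test gave p = 0.1, the smallest that 3 libraries against 3 can give. All of these shares contain Itga7, which was called in the same libraries, so they are no separate evidence. With merged exon lengths, Itga7 made up 57.6% ± 2.96 of the alpha chain level in I/R and 41.7% ± 0.330 in sham ganglia, and the laminin-binding chains 89.0% ± 0.823 in I/R and 85.5% ± 1.41 in sham ganglia, again without overlap.

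**Figure D2:**
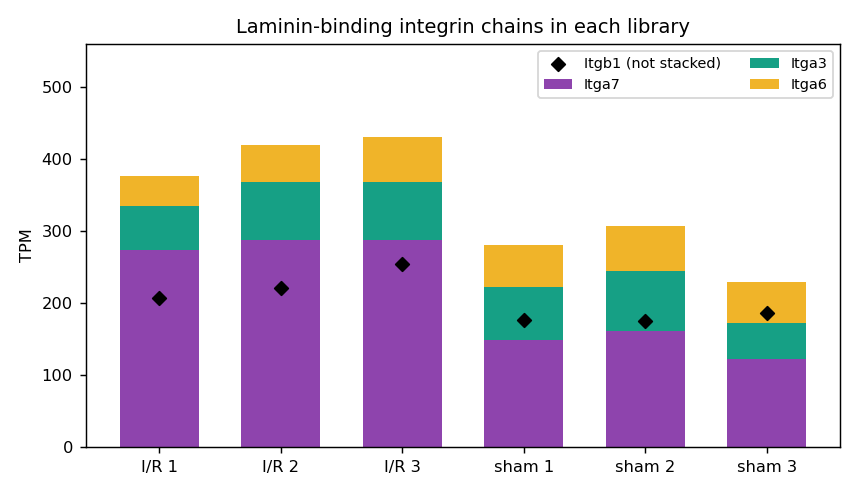
Stacked bars give the TPM of Itga7, Itga3 and Itga6 in each library, and diamonds give Itgb1, which is not stacked. The Itga7 segment is 273 to 288 TPM in the I/R libraries and 122 to 162 TPM in the sham libraries, and with the deposited lengths used here Itgb1 lies below the top of every stack.

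Itgb1 encodes the beta chain that pairs with Itga7 and with most other alpha chains. It had 327, 325 and 358 CPM in I/R 1 to 3, against 260, 256 and 290 CPM in sham 1 to 3. All I/R libraries lay above all sham libraries, and the means were 336 ± 18.7 CPM in I/R and 269 ± 18.4 CPM in sham ganglia. The difference was a log2 fold change of 0.32 ± 0.09 (SE) with an unadjusted p of 0.00558, and it did not pass the adjusted test (adjusted p = 0.185 in edgeR's test). It lay between 0.28 and 0.38 whichever library was left out.

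Itgb1 was the highest beta chain per length, at 227 ± 23.9 TPM in I/R and 179 ± 6.24 TPM in sham ganglia. The ratio of Itga7 to Itgb1 in TPM was 1.32, 1.31 and 1.13 in I/R 1 to 3, against 0.848, 0.924 and 0.655 in sham 1 to 3. With merged exon lengths the ratio was 0.730, 0.725 and 0.629 in I/R 1 to 3, against 0.470, 0.512 and 0.363 in sham 1 to 3. The ratio was higher in every I/R library than in every sham library. A change of length multiplies this ratio by the same factor in every library, so it cannot alter that order. Whether Itga7 stood above or below Itgb1 in the I/R libraries depended on the length used. The ratio of Itga3 and Itga6 together to Itgb1 was 0.554 ± 0.0495 in I/R and 0.716 ± 0.128 in sham ganglia. Of the summed TPM of the 8 beta chains, Itgb1 made up 71.5% ± 1.78 in I/R and 64.0% ± 3.59 in sham ganglia.

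Itgb3 encodes the beta chain of the vitronectin receptor, with Itgav, and of the platelet fibrinogen receptor, with Itga2b. It had 20.6, 25.0 and 23.4 CPM in I/R 1 to 3, against 31.7, 37.4 and 33.0 CPM in sham 1 to 3. All I/R libraries lay below all sham libraries, a gap larger than the SD of either group. The log2 fold change was -0.56 ± 0.12 (SE), with an unadjusted p of 0.000657 and an adjusted p of 0.0546 in edgeR's test, just outside the threshold. It was called in 5 of the 16 alternative analyses, with log2 fold changes of -0.73 to -0.49 over all 16. The platelet markers summed to 2.56 to 8.95 CPM in I/R and 4.86 to 8.23 CPM in sham ganglia, and only 3 of the 10 passed the filter on low counts.

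**Figure D3:**
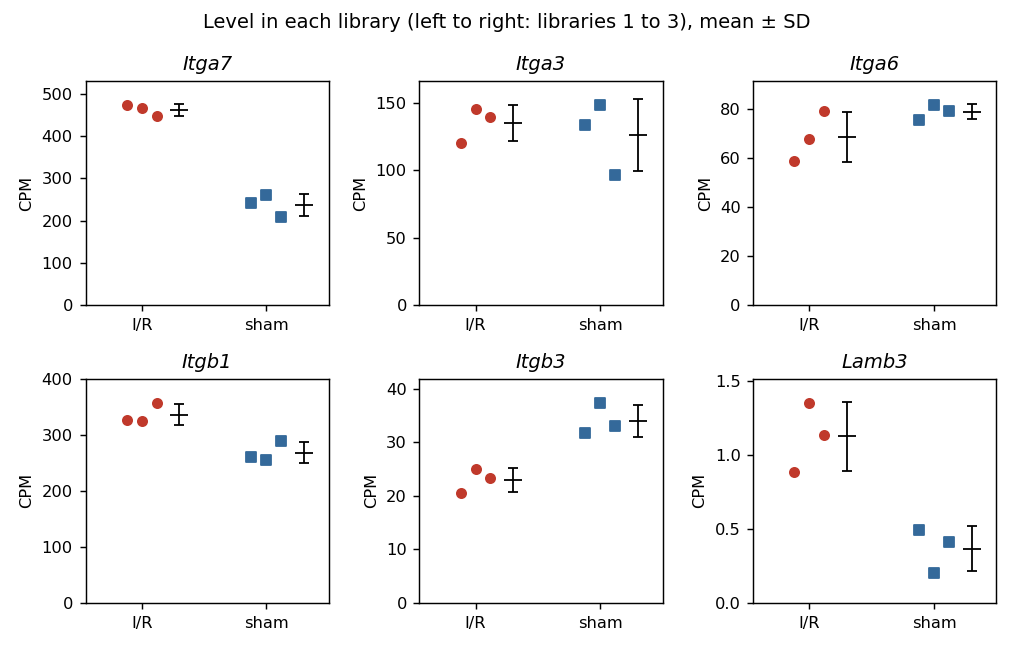
CPM of 6 members in each library, I/R left (circles) and sham right (squares), with the mean ± SD beside the points. Itga7, Itgb1 and Lamb3 are higher and Itgb3 is lower in all I/R libraries than in all sham libraries, while Itga3 and Itga6 overlap.

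The remaining 6 beta chains did not pass the test, with unadjusted p from 0.118 to 0.829. Itgb4, the partner of Itga6 in hemidesmosomes and in myelinating Schwann cells, had 60.8, 71.2 and 64.7 CPM in I/R 1 to 3, against 80.0, 92.8 and 61.0 CPM in sham 1 to 3. The 2 highest values were in sham 1 and sham 2, and sham 3 lay among the I/R libraries. Itgb5 and Itgb8, which pair with Itgav, had log2 fold changes of -0.03 each. Itgb6, an epithelial chain, stood at 1.76 ± 0.330 CPM in I/R and 2.07 ± 0.289 CPM in sham ganglia. The leukocyte chains Itgb2 and Itgb7 stood at 2.19 ± 0.465 and 2.01 ± 0.149 CPM in I/R, and at 1.94 ± 0.0534 and 2.12 ± 0.278 CPM in sham ganglia.

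Among the alpha chains that recognize the peptide motif RGD, which is carried by fibronectin and vitronectin, none of 4 passed the test. Itgav was the highest of them per length and had 36.8, 35.7 and 43.0 CPM in I/R 1 to 3, against 33.3, 31.9 and 37.2 CPM in sham 1 to 3. The groups overlapped, since sham 3 lay above I/R 1 and I/R 2 (log2 fold change 0.18 ± 0.11 SE, adjusted p = 0.645). Itga5, the fibronectin receptor chain, had 5.93, 5.76 and 6.71 CPM in I/R 1 to 3, against 5.16, 5.40 and 4.11 CPM in sham 1 to 3. Its groups did not overlap, and the log2 fold change of 0.33 ± 0.16 (SE) did not pass the test (adjusted p = 0.530). Itga2b, the platelet chain, and Itga8 had log2 fold changes of -0.03 and 0.12.

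None of the 4 collagen-binding alpha chains passed the test either, with log2 fold changes of -0.44 to 0.21. Itga11, a chain of fibroblasts, was the highest of them per length and had 4.40, 6.15 and 5.20 CPM in I/R 1 to 3, against 7.27, 7.25 and 5.35 CPM in sham 1 to 3. The order is not beyond the spread in I/R ganglia, where Itga11 stood at 2.14, 3.20 and 2.83 TPM and Itga1 at 1.80, 2.25 and 3.15 TPM in I/R 1 to 3. In CPM, sham 3 lay below I/R 2, so the groups overlapped for Itga11 (log2 fold change -0.34 ± 0.18 SE, adjusted p = 0.577). Itga10, a chain known from cartilage, had 1.33, 1.40 and 1.73 CPM in I/R 1 to 3, against 2.16, 2.10 and 1.80 CPM in sham 1 to 3. All its I/R values lay below its sham values, with a log2 fold change of -0.44 ± 0.23 (SE, adjusted p = 0.554). Its level is uncertain, since 33.5% of its exon bases are shared with the same-strand gene Gm42957 in the GENCODE M21 annotation, to which 0 to 3 counts per library were assigned. Itga1 and Itga2 had log2 fold changes of 0.21 and 0.03. Itga9, a tenascin receptor chain, and Itga4, which binds the vascular adhesion protein VCAM, had 0.04 and 0.24, and Itga9, the higher per length, stood at 8.44 ± 0.454 CPM in I/R and 8.22 ± 0.977 CPM in sham ganglia.

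The leukocyte alpha chains were scarce. Itgam, the chain of the complement receptor on macrophages, monocytes and neutrophils, had 1.83, 2.95 and 3.33 CPM in I/R 1 to 3, against 1.77, 1.55 and 1.29 CPM in sham 1 to 3. I/R 2 and I/R 3 stood apart, and I/R 1 lay just above the highest sham library. The log2 fold change was 0.82 ± 0.27 (SE), with an unadjusted p of 0.0132 and an adjusted p of 0.276 in edgeR's test. In the GENCODE M21 annotation, 68.7% of the exon bases of Itgam are shared with the same-strand gene Gm49368, to which 0 to 7 counts per library were assigned, so the Itgam level is uncertain.

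Itgal, the leukocyte chain that binds ICAM, had 1.38, 1.36 and 1.05 CPM in I/R 1 to 3, against 0.835, 1.00 and 0.617 CPM in sham 1 to 3, with no overlap (adjusted p = 0.512). Itgae, a chain of lymphocytes in epithelia, was at 0.525 ± 0.0275 CPM in I/R and 0.470 ± 0.227 CPM in sham ganglia, and reached the cut of the filter on low counts, 0.492 CPM, in all 3 I/R libraries but in only 1 sham library. Itgax and Itgad were not tested: Itgax had 5 to 11 counts per I/R library and 6 to 11 per sham library, and Itgad had 0, 0 and 2 counts in I/R 1 to 3 and 2 in each sham library, within what a count of 0 allows. The macrophage markers summed to 92.9 to 93.2 CPM in I/R and 72.6 to 74.2 CPM in sham ganglia. EdgeR called 1 of 14, Cd163, higher, against 0.722% of all tested genes. Of the 14, 12 lay above 0 and 2 below, and 5 had an unadjusted p under 0.05 by edgeR, against 10.5% of all tested genes. The neutrophil and monocyte markers summed to 14.5 to 19.2 CPM in I/R and 17.2 to 23.0 CPM in sham ganglia, and of 9 tested none was called by edgeR (1 at an unadjusted p under 0.05), by DESeq2 or by limma-voom. Their part in the Itgam and Itgal values was not tested.

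**Figure D4:**
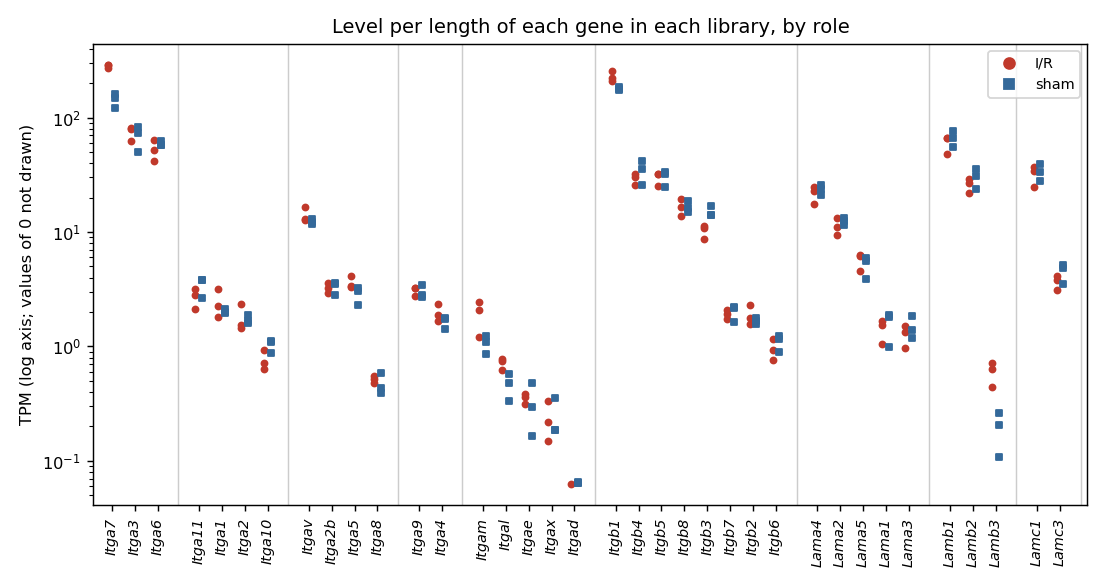
TPM of 36 of the 37 members in each library on a log axis, by role and, within a role, from high to low, with I/R libraries as circles left of sham libraries as squares. Itga7 and Itgb1 are the highest integrins, and Lama4, Lamb1 and Lamc1 are the highest chains of the laminin classes.

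None of the 11 laminin genes was called by edgeR, by DESeq2 or by limma-voom, against 1.15%, 1.91% and 1.08% of all tested genes. In each of these tests 1 laminin gene had an unadjusted p under 0.05, which in edgeR's was Lamb3. Of the 11, 9 lay below 0 and 2 above it, with a median log2 fold change of -0.15, against 8169 of all 16346 tested genes below 0. Most laminins shared the same lowest and highest library, as given below, so these 9 are not independent. Leaving Lamb3 aside, the values ran from -0.30 to 0.13, each smaller than a 1.5-fold change. I/R 1 was the lowest library for 8 of the 11, and sham 2 was the highest for 8. Among all 35 tested members, laminins included, I/R 1 was the lowest for 15 and sham 2 the highest for 14. The same was not counted over all genes, so this is not shown to be particular to laminins. Summed over the 11 genes, the level was 366, 458 and 455 CPM in I/R 1 to 3, against 472, 524 and 408 CPM in sham 1 to 3. Sham 3 lay below I/R 2 and I/R 3, so the summed levels overlapped. The Schwann cell markers summed to 6019 to 6743 CPM in I/R and 7007 to 7317 CPM in sham ganglia. EdgeR called none of the 12, and 4 had an unadjusted p under 0.05. The endothelial markers summed to 235 to 241 CPM in I/R and 210 to 236 CPM in sham ganglia. EdgeR called none of these 11, and 2 had an unadjusted p under 0.05. Among all tested genes, 10.5% had an unadjusted p under 0.05 by edgeR. The part of Schwann cells and endothelium in the laminin values was not tested.

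Per length, Lama4 was the highest laminin alpha chain, a chain of vessels, muscle and peripheral nerve. It had 43.6, 52.9 and 55.4 CPM in I/R 1 to 3, against 55.7, 60.2 and 52.3 CPM in sham 1 to 3 (log2 fold change -0.15 ± 0.11 SE, adjusted p = 0.714), with overlapping groups. Lama2, the alpha chain of the Schwann cell and muscle basement membrane whose loss causes a muscular dystrophy with neuropathy, had 37.7, 40.7 and 46.6 CPM in I/R 1 to 3, against 49.2, 46.2 and 45.6 CPM in sham 1 to 3. I/R 1 and I/R 2 lay below the sham libraries and I/R 3 among them (adjusted p = 0.634). Of the summed alpha chain TPM, Lama4 made up 52.5% ± 0.411 in I/R and 53.5% ± 1.35 in sham ganglia, and Lama2 27.2% ± 1.45 in I/R and 28.3% ± 2.00 in sham ganglia.

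Lama5, a chain of vessels and epithelia, made up 13.8% ± 0.668 of the alpha chain TPM in I/R and 11.5% ± 1.33 in sham ganglia, and was the 1 alpha chain above 0 (log2 fold change 0.13 ± 0.16 SE, adjusted p = 0.826). With merged exon lengths the share of Lama5 was 21.7%, 23.0% and 21.3% in I/R 1 to 3, against 19.6%, 19.9% and 16.5% in sham 1 to 3. Lama1 and Lama3 were below 2 TPM in every library, with log2 fold changes of -0.15 and -0.23. The makeup of the laminin alpha chains therefore differed by at most a few percent of the total between the groups.

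Lamb1, the main beta chain per length, had 114, 147 and 141 CPM in I/R 1 to 3, against 148, 170 and 130 CPM in sham 1 to 3, with overlapping groups (log2 fold change -0.15 ± 0.13 SE, adjusted p = 0.743). Lamb2, the beta chain of synaptic and kidney basement membranes, stood at 56.8 ± 6.45 CPM in I/R and 66.1 ± 11.3 CPM in sham ganglia (adjusted p = 0.646). Lamc1, the gamma chain of nearly all laminins, had 78.0, 101 and 105 CPM in I/R 1 to 3, against 99.7, 114 and 86.7 CPM in sham 1 to 3, also with overlap (log2 fold change -0.08 ± 0.14 SE, adjusted p = 0.876). Lamb1 made up 69.2% ± 1.14 of the beta chain TPM in I/R and 68.7% ± 0.951 in sham ganglia.

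Lamb3 stood apart from the other laminins at a low level. It encodes a beta chain of epithelial laminin. It had 18, 28 and 25 counts in I/R 1 to 3, against 10, 4 and 8 counts in sham 1 to 3, which is 0.890, 1.36 and 1.14 CPM in I/R and 0.491, 0.200 and 0.411 CPM in sham ganglia. Lamb3 reached the cut of the filter on low counts in all 3 I/R libraries and in 0 sham libraries, so it entered the test only through the group in which it is high, and its fold and p are given as a description. The groups did not overlap, and the fitted 3.04-fold difference (log2 fold change 1.60 ± 0.38 SE) had an unadjusted p of 0.00191 and an adjusted p of 0.0993 in edgeR's test. It was called without the filter on low counts (adjusted p = 0.0310 in edgeR's test), and in no other of the 15 alternative fits that tested it. The stricter filter, 3 libraries at or above 1 CPM, left Lamb3 out of the test. The log2 fold change was 2.44 with sham 2 as the only sham library and 2.32 with the muscle covariate, and not called in either. Lama3, an alpha chain of epithelial laminin, lay below 0, at -0.23, with adjusted p of 0.733. Lamc3, a gamma chain, stood at 8.39 ± 0.948 CPM in I/R and 10.3 ± 1.63 CPM in sham ganglia (adjusted p = 0.549).

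Over all members, all 3 I/R values lay above all 3 sham values for 6 of 35 tested genes (Itga5, Itga7, Itgal, Itgam, Itgb1 and Lamb3) and below them for 2 (Itga10 and Itgb3). Among all tested genes, 9.23% lay wholly above and 7.83% wholly below. Of the 6, Lamb3 was tested only because its I/R libraries reached the cut of the filter on low counts.

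Of 57 tested genes of 3 lists that work with these receptors, edgeR called 1 higher and 2 lower, against 0.722% and 0.428% of all tested genes. Of 8 genes listed as other laminin receptors or their partners, 1 rose, Sdc1. It encodes syndecan 1, a heparan sulfate proteoglycan that binds laminin and cooperates with integrins. It had 105, 96.9 and 89.6 CPM in I/R 1 to 3, against 39.5, 47.6 and 37.7 CPM in sham 1 to 3. The groups were far apart, with a log2 fold change of 1.22 ± 0.12 (SE) and adjusted p = 0.000772 in edgeR's test. It was 1.01 with sham 2 as the only sham library, and not called (adjusted p = 0.103). The other 7, among them the dystroglycan gene Dag1 at -0.14 and the Lutheran glycoprotein gene Bcam at 0.15, were not called, and the median of the list was -0.09.

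Of 22 tested basement membrane partners and other ligands, 2 fell and none rose in edgeR's test, against 0.428% of all tested genes called lower. DESeq2 called 4 lower (Col15a1, Fbln1, Fn1 and Vtn) and limma-voom 2 (Col15a1 and Vtn). In this list 19 genes lay below 0, against 8169 of all 16346 tested genes, and the median log2 fold change was -0.22. EdgeR gave 9 of the 22 an unadjusted p under 0.05, against 10.5% of all tested genes. All I/R values lay below all sham values for 7 of the 22 and above them for 1, against 7.83% and 9.23% of all tested genes. Vtn, which encodes vitronectin, a ligand of Itgav integrins, had 7.36, 7.84 and 6.80 CPM in I/R 1 to 3, against 16.7, 20.1 and 20.6 CPM in sham 1 to 3. The I/R libraries were all well below the sham libraries (log2 fold change -1.38 ± 0.13 SE, adjusted p = 0.000772), and Vtn was called in all 16 alternative analyses. Col15a1, a basement membrane collagen of vessels and nerve, had 32.0, 41.8 and 38.0 CPM in I/R 1 to 3, against 62.3, 73.2 and 54.1 CPM in sham 1 to 3. It fell by 0.76 ± 0.14 (SE) on the log2 scale (adjusted p = 0.0286 in edgeR's test), and was no longer called when any library except sham 3 was left out, with adjusted p of 0.0654 to 0.139. The log2 fold change was -0.87 to -0.64 over all 6 such fits. It was -0.998 with sham 2 as the only sham library, also not called (adjusted p = 0.103).

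**Figure D5:**
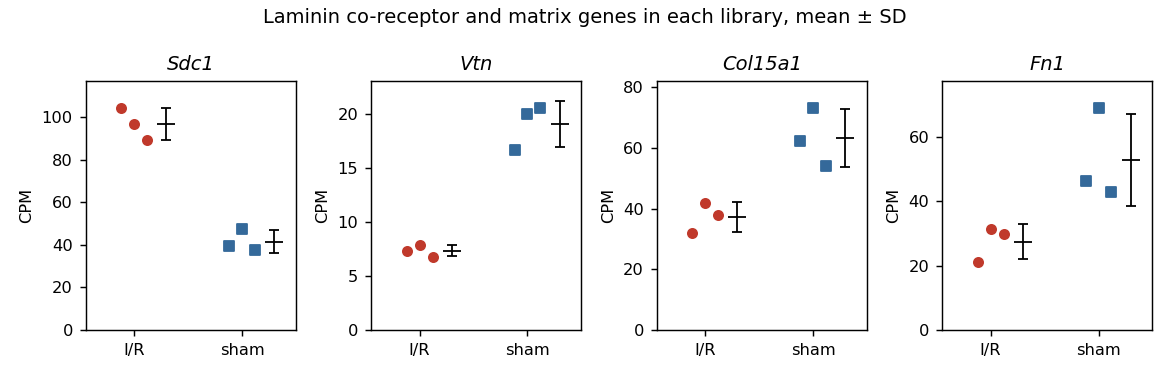
CPM of Sdc1, Vtn, Col15a1 and Fn1 in each library, I/R left (circles) and sham right (squares), with mean ± SD. Sdc1 is higher and Vtn, Col15a1 and Fn1 are lower in all I/R libraries, and of these Fn1 was not called by edgeR (adjusted p = 0.0633) but was called by DESeq2 (adjusted p = 0.000105).

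Fn1, which encodes fibronectin, had 21.2, 31.2 and 29.7 CPM in I/R 1 to 3, against 46.2, 69.1 and 42.8 CPM in sham 1 to 3, without overlap (log2 fold change -0.94 ± 0.20 SE; edgeR gave an adjusted p of 0.0633). It was called by DESeq2 (adjusted p = 0.000105), without the filter on low counts (1.72e-05) and with the muscle covariate (log2 fold change -1.34, adjusted p = 0.0153), but in no other of the 16 alternatives. Fbln1, a fibulin gene, stood at -0.92 with adjusted p = 0.0592 by edgeR, and was called by DESeq2 (adjusted p = 0.0328), without the filter (0.0115) and with robust dispersion (0.0434) alone of the 16 alternatives. The laminin-binding linkers of the basement membrane, Nid1, Hspg2 and Agrn, had log2 fold changes of -0.39, -0.36 and -0.08 and were not called. Of these, Nid1 alone lay lower in all I/R libraries than in all sham libraries (unadjusted p = 0.0160, adjusted p = 0.306 in edgeR's test). The ligand Spp1 stood at 123 ± 3.66 CPM in I/R and 122 ± 9.86 CPM in sham ganglia. The fibroblast and meningeal markers, whose summed levels were given above, were called lower for 9 of 12 genes, against 0.428% of all tested genes. The part of these markers' cells in the values of the matrix genes was not tested.

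Of 27 tested genes of integrin activation and adhesion signalling, no call was made by edgeR, by DESeq2 or by limma-voom, and the median log2 fold change was -0.01. By edgeR 2 genes reached an unadjusted p under 0.05, against 10.5% of all tested genes. Those 2 were Zyx, an actin regulator at focal adhesions, with 97.7 ± 6.07 CPM in I/R and 73.3 ± 8.60 CPM in sham ganglia (adjusted p = 0.148), and Fermt3, the kindlin of blood cells, with 2.68 ± 0.268 CPM in I/R and 1.71 ± 0.266 CPM in sham ganglia (adjusted p = 0.278). Tln1, which encodes talin, the activator that binds beta chain tails, had a log2 fold change of 0.15, the kinase gene Ptk2 had -0.07 and the linker gene Ilk had 0.07.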

How the data were processed

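RNA was measured by stranded mRNA sequencing of 6 libraries, 3 I/R and 3 sham. Per the submitters' processing notes, StringTie, HISAT2 and fastp were used on build GRCm39, with no role or version named. The authors deposited expected counts per Ensembl gene, not scaled to library size, in which 10.7% to 11.5% of values per library were not whole. The sources used here do not give the program that counted reads, whether it used strand, or the release of the annotation, so reads of antisense neighbours may be mixed in. Of the 37 members, 8 had at least 1 value that was not whole.

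Values were rounded and tested with edgeR 4.0.16 in R 4.3.3 (quasi-likelihood test, TMM, the package's filter on low counts, Benjamini-Hochberg adjustment over 16346 genes, threshold 0.05), and the code was tested on simulated data. The SE is the size of the log2 fold change over the square root of F. TPM was computed from rounded counts and the deposited length column, whose unit (other) is bases. The authors' 2 columns of group means of expected counts were not used. A count of 0 allows up to 3 counts, which is 0.137 to 0.154 CPM, for counting error only. No pair of replicates agreed within sampling noise (chi-square per degree of freedom 4.05 to 27.9). Exon overlap was read from GENCODE M21, of build GRCm38, and no coordinates are given.

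The members and the lists (16 in all) were chosen with earlier results of these data known. All members enter the counts, medians and sums, and 1 is not reported here by its own values or drawn. Members with an unadjusted p under 0.05, and the highest per length of each role, are given by library. From each list up to 4 called genes, or else up to 2, were taken by smallest p. Itga3, Itga6, Itga5, Itga10, Itgal, Itgb4, Lama2, Fn1, Fbln1, Nid1, Hspg2, Agrn, Spp1, Dag1, Bcam, Tln1, Ptk2 and Ilk were chosen after their values were seen. The 16 alternatives were RLE and upper-quartile scaling, DESeq2 1.42.0, limma-voom (limma 3.58.1), 2 other filters, robust dispersion, the replicate number as a block, leaving out each of the 6 libraries, sham 2 alone against I/R, and the summed skeletal muscle level as a covariate. The GENCODE M21 lengths were added as alternatives after seeing the data.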

Additional observations from a re-analysis of the deposited data

How the results depend on the processing

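Itga7 kept its direction in all 16 alternatives and its call in all but sham 2 alone against I/R, where 0 members were called higher. Without the filter on low counts 2 members were called higher, Itga7 and Lamb3. The count called lower, 0 as reported, was 1 (Itgb3) with upper-quartile scaling, DESeq2, no filter on low counts, a stricter filter (3 libraries at or above 1 CPM) and robust dispersion. With 1 library left out, the members called were 1 higher and 0 lower each time. Over all genes, the 188 calls became 312 with DESeq2, 494 without the filter, 63 with the replicate block, 32 with sham 2 alone, 75 with the muscle covariate, and 87 to 181 with 1 library left out (93 without sham 1, 87 without I/R 2 and 98 without I/R 3). Of the pathway genes, the 1 call higher became 0 with sham 2 alone, and the 2 calls lower became 4 with DESeq2, 5 without the filter, 1 with the replicate block, 1 with sham 2 alone, and 1 to 2 with 1 library left out. The cause of these changes was not tested, except that sham 2 alone and the fits with 1 library left out rest on fewer samples.

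Direction turned for 11 uncalled members with small differences. With 1 library left out the log2 fold change ran from -0.0079 to 0.32 for Itgb2, -0.063 to 0.23 for Itga3, -0.15 to 0.56 for Itgae, -0.17 to 0.12 for Itga2, -0.017 to 0.23 for Lama5, -0.13 to 0.042 for Itgb5, -0.13 to 0.095 for Itgb8, -0.18 to 0.038 for Lamc1, -0.15 to 0.022 for Itga2b and -0.025 to 0.14 for Itga9. With sham 2 alone it was -0.16 for Itga3, -0.43 for Itgae, -0.089 for Itga2, -0.082 for Lama5, 0.15 for Itgb8 and -0.18 for Itga8. With the muscle covariate it was -0.089 for Itga3, -0.46 for Itgae, -0.13 for Itga2, -0.026 for Lama5, 0.094 for Itgb8 and -0.13 for Itga8.

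No pairing by replicate number was evident: deviations of same-numbered libraries correlated at -0.11, 0.14 and -0.12, and not every library correlated best with its own number. I/R 2 and sham 2 did so, and 3 libraries a group cannot exclude a pairing. With the number as a block Itga7 stood at 0.97 (adjusted p = 0.0229), and Col15a1 at -0.76, not called (adjusted p = 0.0927). With 3 mice a group, a member's SE on the log2 scale was 0.092 (Itgb1) to 0.42 (Itgae), so a small difference that missed the threshold is not shown to be absent. Itgax and Itgad were too low to test.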

Other observations

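Markers of nerve injury in sensory neurons stood higher beside Itga7, with a median log2 fold change of 1.57. Of 13, edgeR's quasi-likelihood test called 11 higher and none lower, against 0.722% and 0.428% of all tested genes. The summed level of the 13 markers was 1105, 984 and 851 CPM in I/R 1 to 3, against 417, 427 and 438 CPM in sham 1 to 3. This list was chosen with earlier results of these data known, so its direction is no independent evidence.

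Other cell type markers were called as follows. Over all tested genes, edgeR called 0.722% higher and 0.428% lower, and gave 10.5% an unadjusted p under 0.05. DESeq2 called 1.91% of all tested genes and limma-voom 1.08%. Of 10 satellite glia genes, 4 had an unadjusted p under 0.05 by edgeR, against 10.5% of all tested genes. Of the 10, Fabp7, a fatty acid binding protein, was called lower, with 77.5 ± 9.91 CPM in I/R and 154 ± 36.5 CPM in sham ganglia. Of 3 tested lymphocyte genes, Ighm was called lower, with 14.1 ± 1.72 CPM in I/R and 23.3 ± 2.35 CPM in sham ganglia. None of 10 pericyte and smooth muscle genes was called by edgeR, with 3 at an unadjusted p under 0.05 and sums of 255 to 292 CPM in I/R and 291 to 298 CPM in sham ganglia. None of 7 tested oligodendrocyte and spinal cord genes was called by edgeR, with 4 at an unadjusted p under 0.05 and sums of 265 to 306 CPM in I/R and 309 to 359 CPM in sham ganglia. Of 11 tested skeletal muscle genes, 10 were called lower by DESeq2, none by limma-voom and 1, Myl1, by edgeR, with 0.189 ± 0.173 CPM in I/R and 8.87 ± 7.39 CPM in sham ganglia. Cd163, the macrophage gene called higher by edgeR, had 6.14 ± 1.26 CPM in I/R and 3.04 ± 0.427 CPM in sham ganglia (SD, n = 3 each), while DESeq2 also called Mertk higher and limma-voom called no macrophage gene.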
